A study of Mus musculus with 7 samples.

Results

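The comparison described here is the addition of 4H2 to DC101 at day 21: 1 library from tumors given both antibodies was set against 1 library from tumors given DC101 alone. Both were picked by their labels, and they are 2 of the 7 libraries of the series. All tumors carried a deletion in exon 19 of Egfr, grew under the skin and were passaged in C57BL/6 mice. Every mouse of both groups had received gefitinib, an inhibitor of the EGFR tyrosine kinase, for 14 days; it was then stopped, and antibody was given for the next 7 days. DC101 binds and blocks mouse VEGFR2, and 4H2 is the antibody against PD-1, the second target that the series title names. The controls therefore also carry the Egfr deletion, past gefitinib and DC101, so that by the labels the pair differs in 4H2 alone. A second pair from the same day, 4H2 against vehicle after the same 14 days of gefitinib, shares no library with the first and is set beside it; its vehicle group is called vehicle in the title and untreated in the treatment field. Bulk RNA was taken from frozen tissue, with the number of animals or tumors behind a library not given in the sources used here. By its title, the series asks about CD8 T cells when PD-1 and VEGFR2 are blocked together following an EGFR inhibitor.

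PD-1 is an inhibitory receptor of activated T cells. When its ligands PD-L1 or PD-L2 bind it, signals from the T cell receptor are damped, and antibodies against PD-1 lift that brake. Interferon gamma from T cells and NK cells induces PD-L1, antigen presentation genes and the chemokines Cxcl9 and Cxcl10 in nearby cells. VEGFR2, encoded by Kdr, carries the growth signal of VEGF in endothelial cells and is blocked by DC101 in both libraries compared.

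The unit is TPM, transcript abundance corrected for length, which the authors scaled to about 1000000 per library. A difference is log2((TPM + 1) / (TPM + 1)), combination minus DC101, and a gene was called higher or lower where it lay at least 2-fold apart on that scale. Each group has 1 library and thus no spread between replicates, so no difference below has a test, an error or a p-value, and each describes 2 libraries. TPM keeps no depth, so the depth of the libraries is unknown. Series of 4 TPM values follow the order vehicle, DC101, 4H2 and combination.

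Of 13998 genes compared, 1555 (11.1%) were higher and 1996 (14.3%) lower with 4H2 added to DC101, or 3551 (25.4%) in all. Counts of list members below are to be read beside these shares. The median gene stood at -0.09, and the quartiles at -0.61 and 0.45. Median-of-ratios scaling moved that median to 0.09 and turned the split to 2020 higher and 1591 lower, so that 55.9% of the calls were higher in place of 43.8%. Without the skeletal muscle fiber genes the rescaled counts were 1863 higher and 1689 lower (52.4% higher). Small list medians therefore carry no direction of their own. At the filter, the gene 1700010I14Rik just inside (mean 1 TPM over the 7 libraries) was at 1.6 TPM in the combination against 0.8, and Bmpr1b just outside (mean 0.986) at 2.4 against 0.7.

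**Figure D1:**
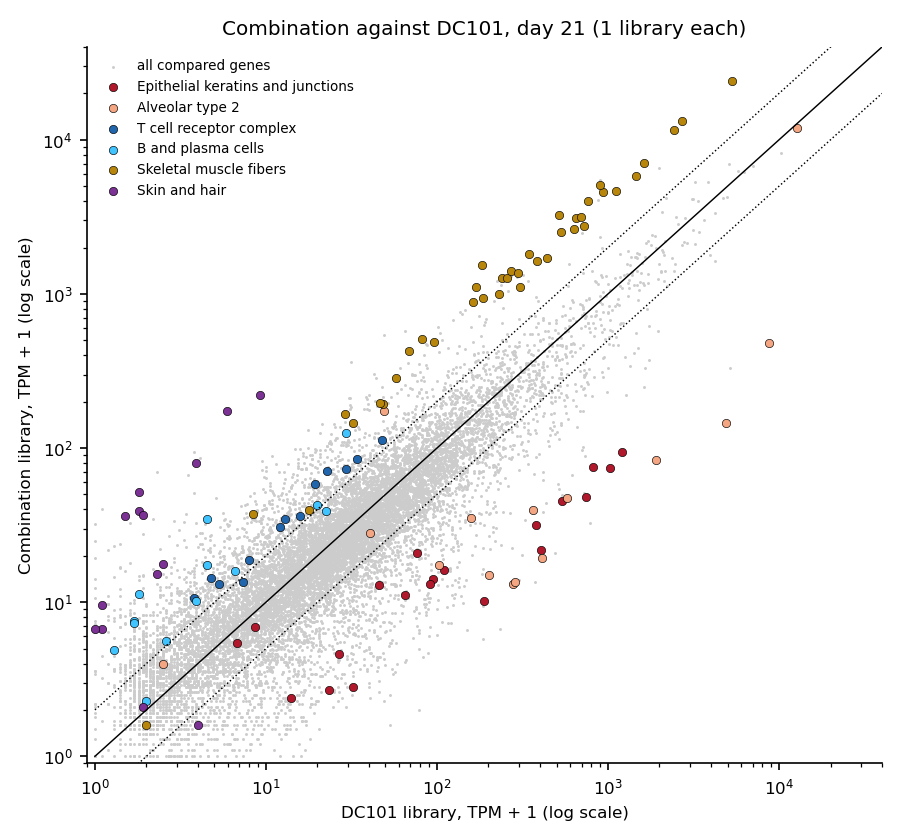
Each point is 1 of the 13998 compared genes, with TPM + 1 in the DC101 library on the horizontal axis and in the combination library on the vertical axis, both on log scales; the solid line marks equal values and the dotted lines 2-fold. Epithelial and most alveolar type 2 genes lie below the lower dotted line, muscle fiber, hair, T cell receptor and B cell genes mostly above the upper one.

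The tumor epithelium gave the lowest values of the comparison. The label calls the tissue lung tumor, and the lung lineage genes were plain in the DC101 library: Nkx2-1, the transcription factor of lung epithelium, was at 201 TPM and Sftpc at 4900. Of 20 genes of simple keratins, tight junctions and epithelial splicing, 18 were lower and 0 higher when 4H2 was added, with a median of -2.96. Epcam (chromosome 17, 87635979 to 87651127 in GRCm38.p6), the epithelial adhesion molecule, was at 332.3, 406.7, 3 and 20.8 TPM, a difference of -4.23. The DC101 library stood with vehicle and the combination with 4H2, but the combination kept more Epcam than 4H2 alone. In bulk tissue, fewer cells of a type and less RNA per cell cannot be told apart. The 20 compared epithelial genes held 0.588% of all TPM in the DC101 library and 0.0494% in the combination library, against 0.873% in vehicle and 0.0062% in 4H2.

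Keratin and junction genes followed Epcam. Krt8 and Krt18, partners in the keratin filaments of simple epithelium, were at 72.7 against 1024 and 93.9 against 1214 TPM. Krt19 stood at 74.7 against 811. Cdh1, the gene of E-cadherin, was at 30.5 against 380.5, and the claudin genes Cldn3 and Cldn7 at 46.9 against 739 and 9.2 against 187.1. None of the 20 genes was above 0 on the log2 scale.

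Alveolar type 2 cells make lung surfactant, and 11 of 15 of their genes were lower (median -3.61). Sftpc (chromosome 14, 70520941 to 70524081), a surfactant protein gene made only by these cells, was at 2429, 4900, 28.8 and 144.6 TPM, a difference of -5.07 and the third lowest of the 12 lowest named genes. Sftpb stood at 478.7 against 8722, Sftpd at 46.1 against 574.1, and Sftpa1 at 16.4 against 102.4. Napsa, the aspartic protease that processes surfactant protein B, was at 82.5 against 1912, the lysosomal gene Lamp3 at 12.1 against 278.3, and the phosphate transporter gene Slc34a2 at 18.4 against 411.2. The ratio of Sftpc to Epcam was 7.31, 12, 9.6 and 6.95, so the combination lay below DC101 but close to vehicle. Without DC101, the ratio was higher with 4H2 than with vehicle. The members above 0 were Lyz1, which macrophages also express, at 173.8 against 48.1 and Hc, the gene of complement C5, at 3 against 1.5. Cd74, shared with antigen-presenting cells, was at 11878 against 12728.

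Alveolar type 1, gastric and gut, and club cell lists lay below 0 at their medians too. Alveolar type 1 genes stood at a median of -1 (7 of 14 lower, 1 higher): Ager was at 29.2 against 387.1 TPM, the water channel gene Aqp5 at 21.4 against 272.9 and Cldn18 at 3.7 against 88. Cav1, also an endothelial gene, stood at 51.3 against 30.7, and Clic5, the member called higher, at 49.7 against 12.1. Gastric and gut genes had a median of -2.82 (6 of 9 lower, 0 higher), with the transcription factor genes Hnf4a at 3.6 against 31.5 and Foxa3 at 2 against 27.9. The remaining 6 genes of that list were below the filter on low values, and without that filter the list median was -0.26. Of 12 club and secretory genes 5 were lower, among them the airway gene Bpifa1 at 329.5 against 5159.

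Named by size alone, the 12 lowest genes included further products of secretory epithelium. The carbonic anhydrase gene Car4 was lowest at 1 against 77.2 TPM, followed by the chitinase-like gene Chil1 at 5.7 against 233.9. Ceacam10 stood at 0.6 against 51.9, Cd177 at 4.8 against 184.5, Mia at 5.6 against 148.7 and the kidney cadherin gene Cdh16 at 13 against 300.8. Dlk1, an imprinted gene of fetal tissue, was at 12.5 against 374.2, and Lcn2, which encodes an iron-scavenging protein of neutrophils and inflamed epithelium, at 19.7 against 490.7.

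Squamous and cornified envelope genes were split. Their median was 0.14, with 4 of 12 higher and 4 lower. It was -1.17 once muscle, hair and keratin genes were left out. That step removed all 4 higher members, which are keratins, and so lowers the median by itself. Lce3f and Crct1, genes of the cornified envelope that were high in both day 21 libraries without 4H2, were at 3.1 against 63.7 and 15.5 against 185.6 TPM. Keratins of basal and wound epidermis went the other way: Krt5 was at 24.3 against 2.3, Krt14 at 24.3 against 7, Krt17 at 52.2 against 22.2 and Krt6a at 7.9 against 0.3.

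Egfr itself (chromosome 11), the mutated driver gene of these tumors, was at 446.7, 537.8, 19.4 and 48.3 TPM, a difference of -3.45. TPM sums both alleles and all cells, so mutant and normal transcripts are not separated. Erbb3 and Erbb2, its receptor partners, were at 15.6 against 117.9 and 14.9 against 75.6. Of 9 compared receptors and EGF family ligands 6 were lower, including the ligand genes Areg (12 against 100.9), Hbegf (5.9 against 24) and Tgfa (3.1 against 18.9). Egf was the 1 member called higher, at 32.5 against 7.7. Relative to Epcam, Egfr was not lower: the ratio was 2.32 in the combination and 1.32 in the DC101 library, next to 6.47 in 4H2 and 1.34 in vehicle.

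Targets and feedback inhibitors of the EGFR and MAPK pathway were lower in 13 of 21 cases and higher in 0 (median -1.18). Etv4, an ETS factor induced by ERK, was at 145.7, 132.5, 3.5 and 12.5 TPM. The ERK phosphatase genes Dusp4 and Dusp6 stood at 15.7 against 111.2 and 55.6 against 258, and the receptor kinase genes Epha2 and Epha4 at 10.4 against 87.8 and 6.8 against 42.3. The feedback inhibitor gene Spry4 was at 5.8 against 20.5 and Phlda1 at 29.4 against 67.8. Etv5 (27.2 against 39.5), Fosl1 (1.3 against 1.2) and the immediate early gene Fos (51.3 against 35.2) lay within 2-fold. The epithelial median of -2.96 lies beside that of the pathway; how far the share of epithelial RNA accounts for the pathway genes was not tested.

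Proliferation genes were lower as a block, 25 of 28 by at least 2-fold, and none lay above 0 (median -1.63). Cdc20, the activator of the anaphase-promoting complex, was at 114.9, 107.3, 7.5 and 18.1 TPM. The mitotic kinase genes Plk1 and Aurka were at 14 against 74.2 and 9.7 against 39.7, Ube2c at 40.8 against 217.9, and the mitotic kinesin gene Kif20a at 10.1 against 55.5. Top2a stood at 32.9 against 116.8 and Mcm5 of the replicative helicase at 29 against 87.8. Mki67 itself was at 37.3 against 74.3, just under the 2-fold threshold at -0.98. It was lower by much less than Epcam, so the Mki67 to Epcam ratio was 1.79 with the combination and 0.183 with DC101. Which cells carried the remaining Mki67 was not tested.

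Lipid synthesis was lower too: 17 of 23 cholesterol and fatty acid genes were called lower and 0 higher (median -1.34). Fasn, the fatty acid synthase gene, stood at 728.8, 711.9, 48.6 and 100.8 TPM, and the sterol enzyme gene Sqle at 12.8 against 91.9. Elovl6 was at 4.3 against 19.6. Hmgcs1, an early step of the mevalonate pathway, was closer to 2-fold at 37.2 against 77.7. Scd1, a desaturase gene that fat tissue expresses strongly, was at 194.5 against 104.2.

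**Figure D2:**
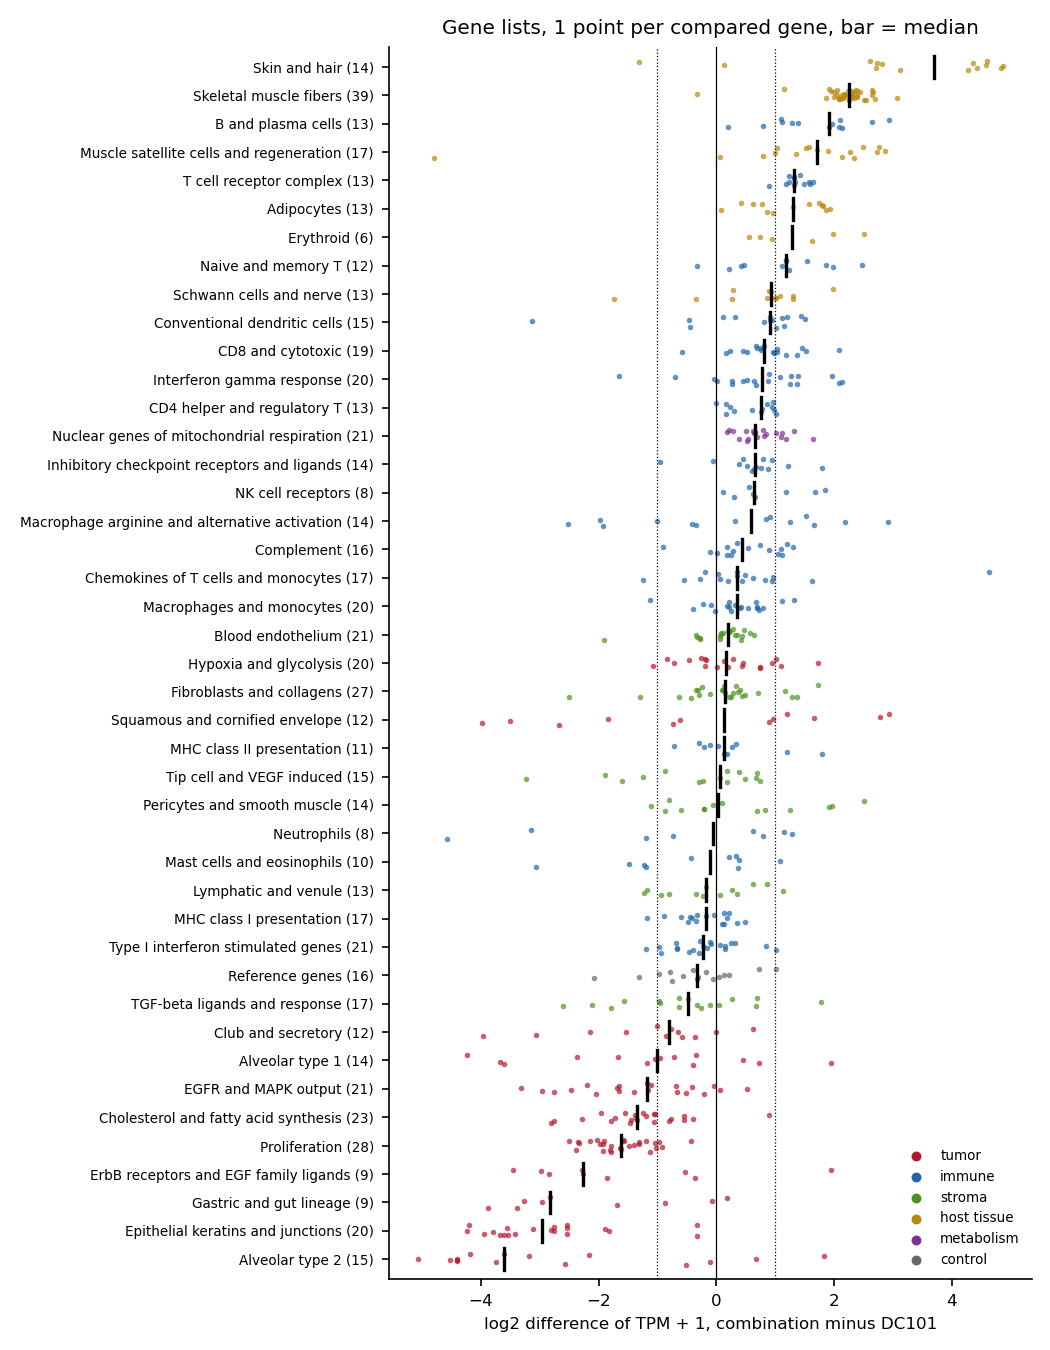
Gene lists in order of their median; each point is 1 compared gene, placed by its log2 difference, combination minus DC101, with the number of compared genes in brackets, the thick bar at the list median and dotted lines at 2-fold. Skin and hair (3.70) and muscle fibers (2.26) stand at the top, B cell and T cell receptor lists (1.91 and 1.33) below them, and epithelial (-2.96) and alveolar type 2 lists (-3.61) at the bottom.

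T cell genes were higher with 4H2 added. Of 13 genes of the T cell receptor complex and its proximal signalling, 12 were called higher and 0 lower, with a median of 1.33 that ranged from 1.11 to 1.52 over the alternative settings. Cd3e, a signalling chain of the receptor, was at 66.3, 46.9, 153.6 and 111.9 TPM, a difference of 1.24. Both libraries with 4H2 lay above both without it, and the combination lay below 4H2 alone. Cd3g was at 72.2 against 28.2, Cd3d at 17.8 against 7 and Cd247 at 9.7 against 2.8. Lck, the kinase that starts the signal, stood at 70.3 against 21.9, and the adaptor gene Lat at 57.8 against 18.4. Ubash3a, which restrains the same signal, was at 13.4 against 3.8.

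CD8 and cytotoxic genes were higher by less. All but Eomes of the 19 lay above 0, 7 were called higher and 0 lower, and the median was 0.82. Cd8a (chromosome 6), a chain of the CD8 coreceptor, was at 30.6, 21.1, 56 and 34.2 TPM, a difference of 0.67, so the combination came close to vehicle. Cd8b1 stood at 34 against 19.6. Gzmb, Prf1 and Ifng, the genes of granzyme B, perforin and interferon gamma, were at 8.3 against 5.5, 12.8 against 10.8 and 6 against 4.1. None of these effector genes reached 2-fold, and all 3 lay below their values in the vehicle library (9.1, 16.6 and 10.1). Larger differences came from Ccl5, a chemokine of memory T cells, at 280.8, 213.2, 1332 and 902.3 TPM, from the granule gene Cst7 (30.5 against 10), the T-box factor gene Tbx21 (16.3 against 5.3) and Gzmk (9.6 against 3.1). Eomes, the related T-box factor gene, was at 17.4 against 26.6. In the day 3 vehicle library Eomes was at 26.8 TPM and Cd8a at 0.7, and which cells carried Eomes was not tested.

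Ratios within a library, which do not depend on the scaling, set these genes against each other. Cd8a over Cd3e was 0.462, 0.45, 0.365 and 0.306 in vehicle, DC101, 4H2 and combination, so the combination was the lowest of the 4. Cd8a over Cd4 was 0.975, 0.678, 0.665 and 0.533. Ifng over Cd3e was 0.152, 0.0874, 0.0944 and 0.0536, and Foxp3 over Cd3e 0.172, 0.186, 0.105 and 0.122. Gzmb per Cd8a differed little, at 0.261 with DC101 and 0.243 with the combination. Cd3e relative to Ptprc, the gene of the pan-leukocyte antigen CD45, was 0.669 with DC101 and 1.02 with the combination. The T cell receptor genes were thus higher by more than the CD8, regulatory and interferon gamma genes in this pair of libraries; without replicates these ratios have no error.

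CD4, regulatory and memory T cell genes separated further. Cd4 was at 64.2 against 31.1 TPM, the 1 gene of 13 in the helper and regulatory list past 2-fold (1.02; list median 0.76). Foxp3, the master factor of regulatory T cells, stood at 13.7 against 8.7, Icos at 12.2 against 5.7, Tnfrsf4 at 24.3 against 12.2 and Il2ra at 8.7 against 4.3. Genes of naive, memory and follicular T cells were higher in 8 of 12 cases and lower in 0 (median 1.19). Tcf7, the factor of self-renewing memory T cells, was at 9.5, 15.3, 31.8 and 46.5 TPM, and its relative Lef1 at 1.8, 1.8, 6.9 and 14.5. For both, the combination was the highest of the 4 libraries. The lymph node homing receptor gene Ccr7 was at 33 against 8.3 and Cxcr5, the receptor for the follicle chemokine Cxcl13, at 5.7 against 0.7. Tcf7 and Lef1 are also active in hair follicles, whose list held 0.0684% of TPM in the combination library and 0.00259% with DC101; the part of follicles in these values was not tested.

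Most genes of the PD-1 axis and of other checkpoints lay within 2-fold. Pdcd1 (chromosome 1), the gene of PD-1 itself, was at 27.5, 15.8, 40.6 and 31.4 TPM, a difference of 0.95, while relative to Cd3e it was lower, at 0.281 against 0.337. Cd274 (chromosome 19, 29362107 to 29388095), the gene of the ligand PD-L1, was at 36, 23.1, 88.9 and 83 TPM, a difference of 1.80 and the largest of 14 checkpoint genes. Of these 14 genes 2 were called higher and 0 lower (median 0.66), a share of higher genes near the 11.1% of all compared genes. The ratio of Cd274 to Ptprc was 0.754 with the combination, the highest of the 4 libraries, against 0.33 with DC101. Btla was the other gene called, at 8.3 against 3. Tigit (28.1 against 14.8), Lag3 (58.2 against 32.9) and Ctla4 (12 against 6.7) lay within 2-fold, Havcr2 was at 17.2 against 18, and Entpd1, also an endothelial and regulatory cell gene, at 49.2 against 96.

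B cell and plasma cell genes were among the highest immune values. Of 13 compared genes 11 were higher and 0 lower (median 1.91, and 0.97 with a pseudocount of 5 TPM, since most are low). Cd79a, a signalling chain of the B cell receptor, was at 7.5, 3.5, 16.5 and 33.4 TPM, a difference of 2.93. Ms4a1, the gene of CD20, stood at 6.5 against 0.7 and Tnfrsf13c, the receptor for the B cell survival factor BAFF, at 6.3 against 0.7. Jchain, which links secreted antibody multimers, was at 42.1, 28.5, 71.3 and 124.7. The combination exceeded 4H2 alone for each of these 4 genes, the reverse of the order seen for Cd3e and Cd8a.

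Of 17 compared chemokine genes Ccl19 and Cxcl13 were higher and Ccl20 lower (median 0.36), a share of higher genes near the 11.1% of all compared genes. Ccl19 (chromosome 4, 42754525 to 42756365), a ligand of Ccr7 made by stromal cells of lymph nodes, was at 0.7, 2.8, 43.7 and 92.9 TPM, a difference of 4.63 and the fifth highest named gene, the only 1 of the 12 highest that is not a hair gene. Cxcl13, which draws B cells into follicles, was at 27.8 against 8.3. Ccl21a, another ligand of Ccr7 and named after its values were seen, was at 10.5, 22.2, 27 and 28.8, within 2-fold. Ccl8 stood at 1375 against 712.3 and Cxcl12 at 69.5 against 38.7, just within 2-fold, while Ccl20, made by epithelium, was at 5.1 against 13.4. The NK cell receptor median was 0.64 (3 of 8 higher, 0 lower), and 0.29 with a pseudocount of 5 TPM, since these genes are low. Klrb1c was at 4.2 against 1.3 and Ncr1 at 3.6 against 2.7.

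**Figure D3:**
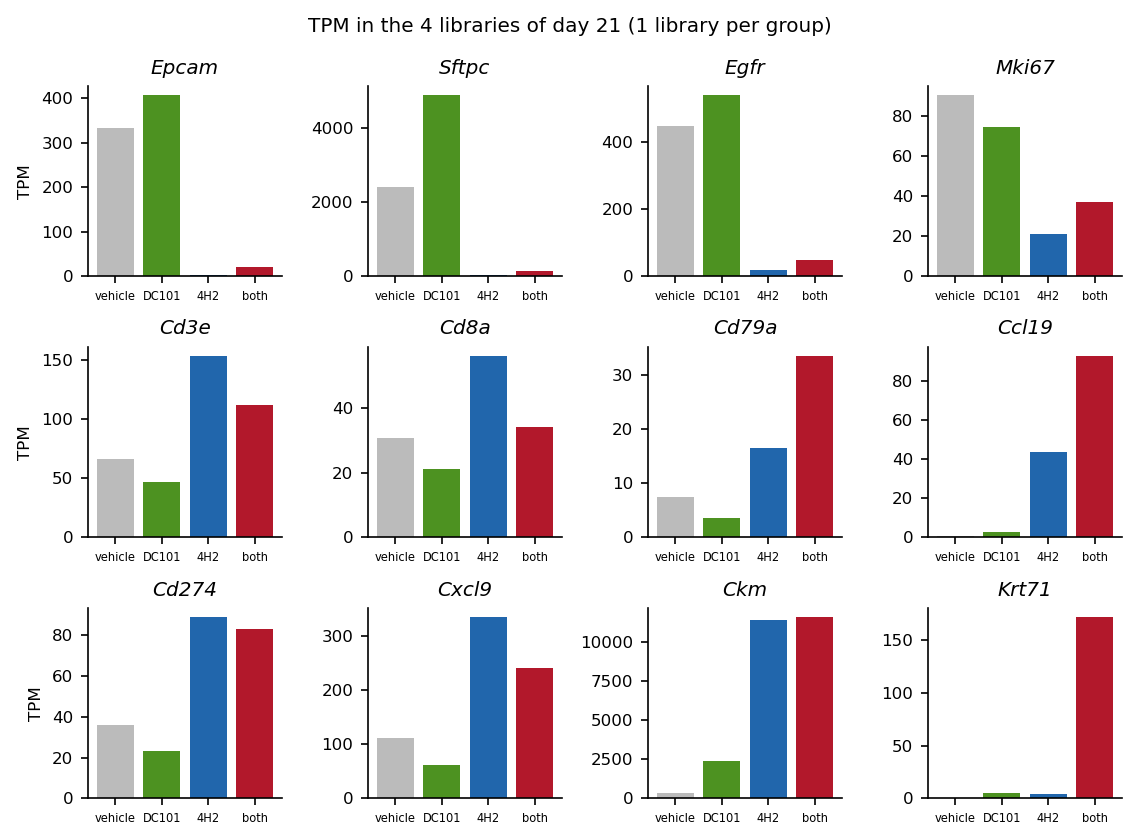
TPM of 12 genes in the 4 libraries of day 21, 1 bar per library from 0 (vehicle, DC101, 4H2, and both antibodies). Epcam, Sftpc and Egfr are high in the pair without 4H2, while Cd3e, Cd274 and Cxcl9 are high in the pair with it; Cd79a and Ccl19 are highest with both antibodies, Ckm is at 11345 and 11563 TPM in the 4H2 libraries, and Krt71 is at 172 TPM with both antibodies and at most 4.9 in the other libraries.

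Interferon gamma response genes had a median of 0.78 and type I interferon genes one of -0.23. Of 20 genes of the first list 8 were higher and 1 lower. Cxcl9 (chromosome 5, 92321331 to 92328079), a chemokine that draws T cells through Cxcr3, was at 111.8, 60.8, 334.5 and 240.7 TPM, and Cxcl10 at 67.5, 41.7, 168.1 and 89.8. The guanylate-binding protein genes Gbp8, Gbp4 and Gbp9, which act against intracellular microbes, stood at 42 against 8.8, 86.6 against 19.6 and 46.8 against 17.3. Irf1 was at 190 against 158.8, within 2-fold, and the feedback inhibitor gene Socs1 at 60.5 against 98.7. Of 21 type I interferon genes 1 was higher (Zbp1, 101.1 against 49.5) and 1 lower (Oas3, 12.2 against 29.2). Isg15 was at 41.5 against 80.8, Bst2 at 207.2 against 408.2 and Ifit3 at 71.6 against 39.2.

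The promoters of both lists hold the elements these interferons act through, and the windows below are shown because genes with the same order of elements had different values. They are the 250 bases before the transcript start, 5′ to 3′ on the transcribed strand, from RefSeq on GRCm38.p6, with matches in capitals. The motifs searched on both strands were the core of the interferon-stimulated response element (ISRE), a pair of GAAA repeats with any 2 bases between them, and TTCNNNGAA, the gamma-activated site (GAS) of interferon gamma signalling. Irgm2 lies at chr11:58214727-58214976 (plus strand), Igtp at chr11:58199306-58199555 (plus), Tgtp1 at chr11:48992247-48992496 (minus) and Isg15 at chr4:156200819-156201068 (minus); in Isg15 the 3 ISRE matches overlap.
Irgm2: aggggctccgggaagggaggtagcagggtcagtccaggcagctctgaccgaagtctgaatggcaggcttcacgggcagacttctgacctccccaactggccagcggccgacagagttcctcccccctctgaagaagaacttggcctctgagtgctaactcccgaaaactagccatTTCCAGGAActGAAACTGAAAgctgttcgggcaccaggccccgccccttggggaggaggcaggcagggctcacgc
Igtp: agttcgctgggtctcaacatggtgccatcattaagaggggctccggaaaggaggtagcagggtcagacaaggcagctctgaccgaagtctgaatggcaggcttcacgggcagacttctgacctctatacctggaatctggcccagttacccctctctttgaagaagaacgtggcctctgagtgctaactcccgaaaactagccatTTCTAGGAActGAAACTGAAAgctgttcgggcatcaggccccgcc
Tgtp1: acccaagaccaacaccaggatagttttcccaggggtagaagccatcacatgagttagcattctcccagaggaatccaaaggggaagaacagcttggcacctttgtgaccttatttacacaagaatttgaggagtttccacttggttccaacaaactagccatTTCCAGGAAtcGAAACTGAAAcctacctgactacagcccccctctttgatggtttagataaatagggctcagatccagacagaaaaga
Isg15: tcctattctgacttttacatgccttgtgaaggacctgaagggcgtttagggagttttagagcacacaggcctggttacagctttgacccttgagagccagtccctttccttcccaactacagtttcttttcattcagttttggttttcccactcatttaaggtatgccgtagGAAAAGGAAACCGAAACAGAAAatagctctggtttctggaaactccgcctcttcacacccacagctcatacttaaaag
In the first 3 promoters a GAS match is followed within a few bases by an ISRE match, starting 75 and 64 bases before the start of Irgm2, 45 and 34 before Igtp, and 88 and 77 before Tgtp1. Irgm2 and Igtp, chosen after their values were seen, encode immunity-related GTPases and were at 322.4 against 123.5 TPM (1.38) and 398 against 255.1 (0.64). Tgtp1 was at 350.6, 217.1, 52.2 and 68.6 TPM (-1.65), while its near-identical copy Tgtp2, also chosen after its values were seen, stood at 212.1 against 176, so the split of reads between the copies is uncertain. Over windows that also take in the 50 bases after the start, 11 of 14 interferon gamma promoters and 11 of 17 type I promoters held an ISRE match (78.6% and 64.7%), against 3.89% of the 10609 compared genes with a promoter. A GAS match stood in 7 of 14 and 3 of 17 (50% and 17.6%), against 8.51%. A match is a description of the letters and shows no binding.

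**Figure D4:**
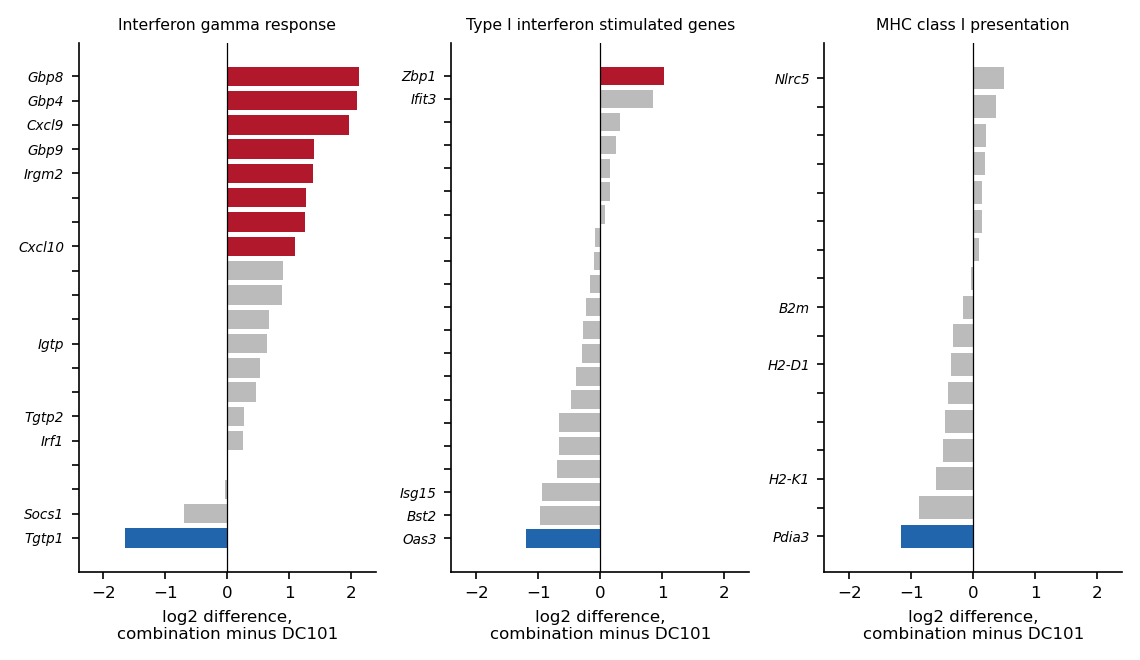
Log2 difference of TPM + 1, combination minus DC101, for each compared gene of 3 lists, with bars from 0 coloured red at 2-fold or more higher, blue at 2-fold or more lower and gray between, with names at the bars of genes the text describes. Interferon gamma genes lie mostly to the right (8 red, 1 blue), type I interferon and MHC class I genes on both sides of 0.

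The lists of antigen presentation genes had medians near 0. The class I list of the MHC stood at a median of -0.17 (0 of 17 higher, 1 lower), which turned to 0.03 under median-of-ratios scaling and to 0.09 without the 50 most abundant genes. B2m, the light chain, was at 4160 against 4680 TPM, H2-K1 at 2114 against 3206 and H2-D1 at 3338 against 4248, while Nlrc5, the activator of the class I genes, stood at 105.7 against 74.8. The gene called lower was Pdia3 of the peptide loading complex, at 256.7 against 577.1. Class II genes had a median of 0.13: H2-Ab1 and H2-Aa were at 6255 against 5728 and 3988 against 3338, and Ciita at 93.4 against 107.3. H2-Ob and H2-Oa, the subunits of a class II regulator of B cells, were the 2 called higher, at 10.8 against 2.4 and 18.1 against 7.3. The class II list had 11 compared genes, and 11.1% of all compared genes were called higher.

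Macrophage genes were close in both libraries, but individual effector genes were not. Of 20 macrophage and monocyte genes 2 were higher and 1 lower (median 0.36), against 11.1% higher and 14.3% lower over all compared genes. Adgre1, the gene of F4/80, was at 115.1, 119.8, 254 and 195.5 TPM, Csf1r at 291.5 against 256.8 and Cd68 at 487.8 against 299.8. Adgre1 over Ptprc was nearly the same, at 1.71 with DC101 and 1.78 with the combination. Ly6c2, a gene of inflammatory monocytes, stood at 156.7 against 62.3, Fcgr4 at 156.9 against 72.1 and Cd14 at 51.1 against 113.4. The enzymes that compete for arginine went opposite ways: Nos2 (chromosome 11, 78920787 to 78960226), which makes nitric oxide, was at 9.7, 8.5, 106 and 70.8 TPM (2.92), and Arg1 at 18, 18.5, 1.2 and 2.4 (-2.52). In the day 3 vehicle library Arg1 was highest of the 7 libraries at 142.4 TPM, while Adgre1 was lowest at 31.2. Which cells carried Arg1 was not tested. Other genes of alternative activation split as well, with Retnla at 413.8 against 129.4, Gpnmb at 144.6 against 30.8 and Folr2 at 52.9 against 17.8, and Ear2 at 16.8 against 69.4. Mrc1, the usual marker, was at 151.6 against 121.3.

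Dendritic cell genes were higher in 6 of 15 cases and lower in 1 (median 0.91). Those of the cross-presenting subset stood at 17.2 against 6.9 TPM for Clec9a, 54.7 against 19.5 for Batf3, 183.2 against 82.1 for Irf8 and 6.9 against 3.2 for Xcr1. The growth factor receptor gene Flt3 was at 7.9 against 3.4, and Fscn1, of migrating dendritic cells, at 216.1 against 75.3. Ccl17 was the 1 gene lower, at 1.2 against 18.3, and Itgax, the gene of CD11c, was at 139.2 against 192.5.

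Granulocyte genes were low and gave no common direction. The neutrophil median was -0.06 with 2 of 8 higher and 3 lower, and it turned to 0.05 under median-of-ratios scaling. S100a8 and S100a9, among the strongest neutrophil genes, were at 1.6 and 0.6 TPM with the combination and listed at 0 with DC101. Csf3r was at 27.3 against 15.4, Ltf at 0.5 against 12.2 and Mmp9 at 10.4 against 25.2. Mast cell and eosinophil genes had a median of -0.10, turning to 0.05 under the same scaling, and Hdc, the enzyme of histamine synthesis, was at 8 against 74.8. The protease genes Mcpt4 and Cpa3 were at 18.6 against 16 and 1.7 against 2.6. In the day 3 vehicle library Hdc was at 115.9 TPM and Cpa3 at 1.4, and the cell source of Hdc was not tested.

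Complement genes were higher in 5 of 16 cases and lower in 0 (median 0.45). C3, the central component, was at 244.1, 387.3, 719.1 and 899.1 TPM, C4b at 294.9 against 141.9 and C2 at 33.3 against 14.9. Cfd, the factor D gene that fat cells secrete, stood at 50.9, 163.9, 402.6 and 403.7. Adipocyte genes had a median of 1.30 in the same pair, and their part in the Cfd value was not tested.

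Blood vessel genes differed little when 4H2 was added to DC101. Of 21 endothelial genes 0 were higher and 1 lower (median 0.20). Pecam1, the gene of CD31, was at 67.5, 55, 56.4 and 58 TPM, Cdh5 of endothelial junctions at 91.4, 54.5, 52.4 and 43.5, and Tek, the angiopoietin receptor gene, at 9.5 against 5.7. Kdr (chromosome 5), the DC101 target, was at 19.6, 11.4, 10.7 and 9.3, and its ratio to Pecam1 was 0.207 with DC101 and 0.16 with the combination. Esam, the adhesion molecule gene called lower, stood at 24 against 92.6. It is active in platelets as well, and the cell source of Esam was not tested. Of 15 tip cell and VEGF-induced genes 4 were lower and 0 higher, while the median was 0.07 and the mean -0.40. Apln, the apelin gene, was at 53.8, 121.3, 17.8 and 12 TPM (-3.23), and the basement membrane gene Col4a1 at 143.4 against 533. In the day 3 vehicle library Apln was at 227.4 TPM and Pecam1 at 26.9, and the cell source of Apln was not tested. Dll4 and Angpt2 stood at 6.3 against 5.4 and 5.8 against 7. Vegfa was at 45.7 against 52.4.

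Lymphatic and venule genes had a median of -0.17, or 0.01 under median-of-ratios scaling, with 1 of 13 higher and 2 lower. Over all compared genes the shares were 11.1% higher and 14.3% lower. Selp, the P-selectin gene, was at 7 against 17.6 TPM and Icam1 at 146.6 against 257.4. Among 14 pericyte and smooth muscle genes 4 were higher and 1 lower (median 0.02). Rgs5 and Pdgfrb, pericyte genes, stood at 23.1 against 26.6 and 50.4 against 46.9, and Acta2 at 30.2 against 65.7. Of the higher members, Des (2745 against 724.1), Lmod1 (53.5 against 8.6) and Abcc9 (54.1 against 13.1) are also active in skeletal muscle, whose fiber genes were higher in 38 of 39 cases. The fourth higher member was Ndufa4l2, a pericyte gene, at 34.4 against 13.9.

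Fibroblast genes stayed close at their median (0.15), with 4 of 27 higher and 2 lower, against 11.1% and 14.3% of all compared genes. Col1a1 was at 3874, 3124, 4306 and 4153 TPM and Col3a1 at 2218 against 1718. The higher members were the matrix genes Dcn at 101.6, 142.4, 217.6 and 347.7, Dpt at 240.5 against 91.9 and Ogn at 37.9 against 10.7, and Fap, a protease gene of activated fibroblasts, at 11.4 against 4.5. Col12a1 and Col8a1 were lower at 15.2 against 91.1 and 17.7 against 45. Among TGF-beta ligands and response genes 4 of 17 were lower and 1 higher (median -0.48). Tnc, the tenascin C gene of wound matrix, stood at 560, 131, 20.4 and 20.8 TPM, Thbs1 at 44.4 against 194.4 and Tgfbr1 at 26.6 against 80.8. Tgfb1 itself was at 240.2 against 232.9. Ltbp1, a latent TGF-beta binding protein gene, was the 1 member higher, at 12.4 against 2.9.

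Skeletal muscle fiber genes held 11.7% of all TPM in the combination library and 2.49% in DC101, next to 11.7% in 4H2 and 0.458% in vehicle, and 38 of 39 were called higher (median 2.26). Acta1, the actin of skeletal muscle, was at 1201, 5309, 26090 and 24234 TPM, and Ckm (chromosome 7, 19411094 to 19421583), muscle creatine kinase, at 344.9, 2416, 11345 and 11563. Myh4 and Myh2, the myosins of fast fibers, stood at 7109 against 1619 and 1531 against 181.5, and Mb, the myoglobin gene, at 3272 against 513.5. Myh7 of slow fibers was at 0.6 against 1. Apart from Myh7, the DC101 library already lay above vehicle in the fiber genes named here, and both 4H2 libraries lay above DC101.

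The promoter of Myh4, shown as a muscle gene at chr11:67237562-67237811 (plus strand, the 250 bases before the start, GRCm38.p6, RefSeq), holds the E-box CAGCTG bound by myogenic factors, in capitals, starting 67 bases before the start.
Myh4: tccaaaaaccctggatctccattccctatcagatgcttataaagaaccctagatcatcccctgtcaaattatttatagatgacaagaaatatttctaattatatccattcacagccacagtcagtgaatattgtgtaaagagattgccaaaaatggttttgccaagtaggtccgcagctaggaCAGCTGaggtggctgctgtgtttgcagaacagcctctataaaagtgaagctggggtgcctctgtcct
Of 29 fiber genes with a promoter window of 300 bases, 16 (55.2%) held CAGCTG against 18.5% of all, and 4 (13.8%) the MEF2 motif, CTA and TAG with any 4 bases between them, against 3.70%. None of the 29 held an ISRE match, which is near the share of 3.89% over all compared genes with a promoter.

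Genes of muscle precursors and regeneration were higher in 14 of 17 cases (median 1.71), with the myogenic factor genes Myod1 at 24.1 against 4.7 TPM and Myog at 57.6 against 16.9. Embryonic and neonatal myosins Myh3 and Myh8 were at 10.7 against 3.6 and 58.1 against 9.5, and Mstn, the gene of myostatin, at 142.6 against 20.2. Pax7 of satellite cells was at 0.7 against 0.3, below the filter. The ratio of Myh3 to Acta1 was lower with the combination than with DC101, at 0.000442 against 0.000678, so the embryonic myosin was higher by less than the actin of mature fibers. Dlk1, of this list and of the 12 lowest genes, went the other way.

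Hair follicle genes set the combination library apart from the other 3 of day 21. The skin and hair list had a median of 3.70 (12 of 14 higher, 1 lower), which was 2.27 with a pseudocount of 5 TPM and 4.98 with one of 0.1 TPM. Its genes held 0.00067% of TPM in vehicle, 0.00259% in DC101, 0.00172% in 4H2 and 0.0684% in the combination library. Krt71 (chromosome 15, 101733949 to 101743097), a keratin of the inner root sheath, was at 0.6, 4.9, 4.4 and 172 TPM. Tchh, the trichohyalin gene, stood at 1, 8.2, 7.1 and 220, Krt25 at 0.1, 0.8, 1.1 and 50.5, and Krt72, with the highest difference of the named genes, at 39.3 against 0.1. All of the 12 highest genes but Ccl19 were hair keratins, keratin-associated protein genes or Tchh. All 31 compared keratin-associated protein genes, a family counted after its values were seen, were higher (median 2.89), against 4 of 31 for 4H2 over vehicle. Krt10 of the epidermis was lower, at 0.6 against 3. In the library at day 14 of gefitinib the list held 0.013% of TPM.

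Fat, nerve and blood genes were higher in the same library. Adipocyte genes were called higher in 7 of 13 cases and lower in 0 (median 1.30): Adipoq, the adiponectin gene, was at 3.1, 8.5, 31.3 and 33.4 TPM and the lipid droplet gene Plin1 at 25.8 against 8. Of 13 Schwann cell genes 6 were higher and 1 lower (median 0.93). Sox10, a transcription factor gene of these cells, was at 4.7 against 1.3, whereas Ngfr was at 7.8 against 28.1. Hemoglobin genes Hba-a1 and Hbb-bs stood at 82.8 against 26 and 54.5 against 13, with reads that near-identical copies may share. Muscle, fat, skin and nerve are tissues beside a subcutaneous tumor, and what part their RNA has in the lower epithelial and higher lymphoid values was not tested. Rescaled without muscle, hair and keratin genes, the medians were -2.63 for the remaining epithelial genes, -1.51 for proliferation, 1.47 for T cell receptor genes, 2.05 for B cell genes and 0.92 for interferon gamma genes. Such rescaling multiplies all remaining genes of a library by the same factor. It therefore cannot show what part the mix of tissues has in these medians.

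Respiration genes of the nucleus had a median of 0.66, with 6 of 21 higher and all 21 above 0. Idh3a and Sdha, enzymes of the citric acid cycle, were at 138.9 against 55 and 362.5 against 178.6 TPM, and the regulator gene Ppargc1a at 4.3 against 0.7. The hypoxia and glycolysis list lay at 0.17, with 3 of 20 higher and 1 lower, against 11.1% and 14.3% of all compared genes. Aldoa, the aldolase of muscle, stood at 902.4, 1979, 7065 and 6586, and Slc2a1, the glucose transporter gene GLUT1, at 52.6 against 111.3. Reference genes had a median of -0.32: Actb was at 8179 against 10274, Hprt at 82.4 against 102.5, Tfrc at 33.3 against 144.1 and Gapdh at 3406 against 2066.

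The libraries with 4H2 differed from those without it in much the same way with and without DC101. Both libraries with 4H2 also held 11.7% muscle fiber TPM, against 2.49% in DC101 and 0.458% in vehicle. Their epithelial shares were 0.0494% with the combination and 0.0062% with 4H2, against 0.588% in DC101 and 0.873% in vehicle. The part of this tissue mix in the shared differences was not tested. Across the 13998 genes, combination minus DC101 and 4H2 minus vehicle had a Pearson r of 0.876 and a Spearman rho of 0.883, across genes that share their libraries and are not independent replicates. Of the genes higher with DC101 present, 1089 (70%) were also higher without it, which is 71.3% of the 1528 higher there (10.9% of all). Of the genes lower, 1814 (90.9%) were lower in both, or 64.9% of the 2797 lower without DC101 (20% of all). Opposite calls were few, 13 higher with DC101 and lower without, and 7 the reverse. Leaving out muscle fiber, hair, keratin, epithelial and alveolar type 2 genes gave r = 0.89 and rho = 0.884 over 13859 genes. That step removed few genes and kept others of muscle, fat and proliferating cells. It cannot show how far tissue content carries the correlation.

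Tumor lists lay nearer 0 with DC101 present than without it. The epithelial median was -2.96 against -6.14, the alveolar type 2 median -3.61 against -5.27, ErbB -2.27 against -3.57 and proliferation -1.63 against -2.75. Muscle fibers were at 2.26 against 4.47 and adipocytes at 1.30 against 2.32. The muscle share was 11.7% in both libraries with 4H2, while the DC101 and vehicle libraries differed (2.49% and 0.458%). The epithelial share differed between the libraries with 4H2, at 0.0494% and 0.0062%, next to 0.588% in DC101 and 0.873% in vehicle. T cell receptor (1.33 against 1.19), CD8 (0.82 and 0.83), dendritic cell (0.91 and 0.92) and interferon gamma lists (0.78 against 0.66) were close. B and plasma cells (1.91 against 1.04), memory T cells (1.19 against 0.80), helper and regulatory T cells (0.76 against 0.24) and skin and hair (3.70 against 0.32) stood further from 0 with DC101 present. None of these differences between the pairs could be tested.

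**Figure D5:**
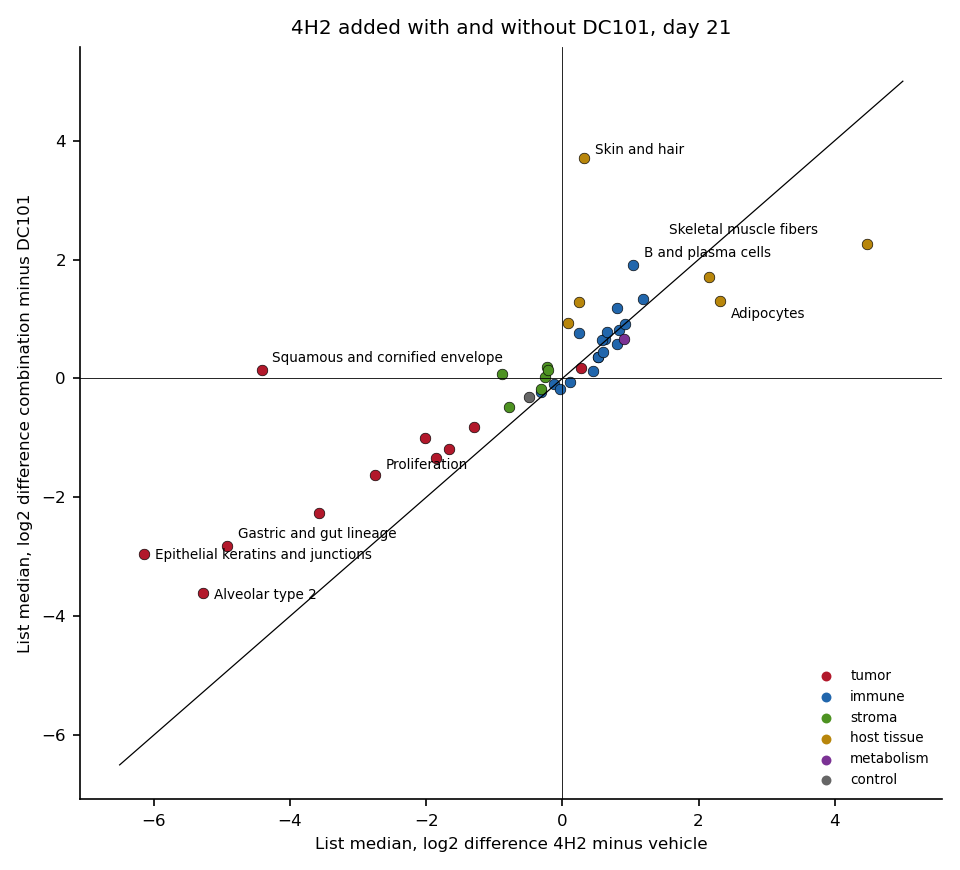
Each point is a gene list, placed by its median log2 difference for 4H2 minus vehicle (horizontal) and combination minus DC101 (vertical); the diagonal marks equal values. Epithelial and alveolar type 2 lists lie far lower on the horizontal than on the vertical axis, skeletal muscle further right than up, and skin and hair (0.32 and 3.70) and the squamous list (-4.41 and 0.14) lie farthest above the diagonal.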

How the data were processed

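RNA abundance was measured in 7 bulk libraries of mouse subcutaneous tumors, 1 library per group, and 2 of them carry the comparison. Per the labels' protocols, total RNA was depleted of ribosomal RNA and made into directional libraries. The deposited values are TPM, rounded by the authors to 1 decimal and summing to about 1000000 per library. Per the submitters' processing notes the reads were placed on GRCm38.p6, with aligner, counting tool and annotation not given in the sources used here. All 13 mitochondrially encoded protein genes are listed at 0, so a value of 0 is reported only as listed at 0. Labels do not say whether a library is a single animal.

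From the TPM values, log2((TPM + 1) / (TPM + 1)) was computed for the 13998 of 21892 symbols with a mean of at least 1 TPM over the 7 libraries, with Python 3.11.15, pandas 2.3.3, numpy 2.4.6 and scipy 1.17.1. Genes at least 2-fold apart were called. No test was run, since each group has 1 library; the calling code was tested on simulated data. Of 752 symbols in 43 gene lists, 736 are in the table and 676 were compared. The antigen receptor and immunoglobulin constant region symbols of the lists are among the 16 without a row. The members and lists were chosen with earlier results of these data known. Named genes are the 12 highest and 12 lowest protein-coding genes with at least 10 TPM in either library, and from each list its core genes, 4 members on the side of its median and up to 2 on the other; a gene outside this rule is said to be chosen after seeing its values. Some genes that this rule names are not reported here. Positions and promoters come from RefSeq on the same build. Alternatives were pseudocounts of 0.1 and 5 TPM, no filter or a mean of at least 5 TPM, median-of-ratios scaling over 7340 genes, rescaling without muscle fiber genes or the 50 most abundant genes, the mean of a list, and lists without shared members. Rescaling without muscle, hair and keratin genes was chosen after seeing the data.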

Additional observations from a re-analysis of the deposited data

Results flagged for a closer look

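Of all compared genes, 13 were at least 2-fold higher for 4H2 given with DC101 and at least 2-fold lower without it, and 7 the reverse; 4 of these are among the genes that the naming rule selects. Of the lists whose median reached 1 in size in either pair, 1 had medians of opposite sign. With 1 library per group, these differences between the pairs were not tested. Krt17, a keratin of hair follicles and wounded epidermis, was 1.20 higher on the log2 scale with DC101 present and at -4.70 without it, with 113.2, 22.2, 3.4 and 52.2 TPM in the vehicle, DC101, 4H2 and combination libraries. Krt6a, of the same tissues, was at 2.78 and -1.24. The squamous and cornified envelope list, which holds both, had medians of 0.14 and -4.41. Hbb-bt, a hemoglobin gene with near-identical copies, was at 2.51 and -1.51, between 0.4 and 7 TPM. Ngfr, a neurotrophin receptor gene of Schwann and basal cells, was at -1.73 and 1.26, with 28.1 TPM with DC101 and 28.2 with 4H2 against 11.2 with vehicle and 7.8 with the combination.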

How the results depend on the processing

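No paired analysis was possible because each group has 1 library. No value past 2-fold changed sign. For single genes this says little, since a pseudocount or a filter cannot turn the sign of a difference. Each rescaling multiplied all remaining genes of a library by the same factor. Over 8 alternatives, 23 of the 24 recomputed counts and correlations stayed within the limits set (counts within 1.5 times), and 1 moved, the count of higher genes, which was 917 with a pseudocount of 5 TPM in place of 1555. Of the list medians 408 recomputed values were close to the reported one and 18 moved; of single genes, 2632 and 91. Among the moved medians were skin and hair at 2.78 without a filter and 4.59 with a mean of at least 5 TPM, gastric and gut at -0.26 without a filter, neutrophils at 0.79 with a mean of at least 5 TPM, squamous at -1.17 without keratin genes, ErbB at -1.26 without a filter in place of -2.27, and alveolar type 2 at -2.69 as a mean over the members. The squamous value leaves out the 4 higher members of that list. Unknown depth limits every gene near the smallest listed value of 0.1 TPM, and 1 library per group limits every difference.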

Other observations

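The following genes were chosen after their values were seen. A pair of immunity-related GTPase genes outside the lists, Gm4841 and F830016B08Rik, were among the largest interferon-type differences: 360.5 against 30.3 TPM (3.53) and 536.8 against 47.9 (3.46), combination against DC101. With 4H2 they stood at 237.2 and 424.1 and with vehicle at 32.8 and 39.8, so both 4H2 libraries lay above both others. Their neighbour Gm4951 was at 26.3 against 54.2 (-1.02). These genes resemble each other, and the split of reads between them is uncertain. Gzme, a granzyme gene outside the cytotoxic list, went against Gzmb and Gzmk, at 158.9 TPM in vehicle, 98.4 in DC101 and 5.1 in the combination (-4.03), and listed at 0 in 4H2. Fabp3, a fatty acid binding protein of muscle and heart, stood at 573.3 against 64.3 (3.14).

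Among the 13 genes higher with DC101 present and lower without it, several are expressed in skin and other barrier epithelium. Slpi, a secreted protease inhibitor, was at 57, 14, 12.9 and 34.4 TPM in the vehicle, DC101, 4H2 and combination libraries. Gjb2, a gap junction gene, was at 4.2, 6.2, 0.6 and 20.2 in the same order, and Lypd3 at 3, 1.6, 0.5 and 9.3. Hair genes were highest in the combination library too, and their part in these values was not tested.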
